A study of Mus musculus with 16 samples.

Results

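A set of 117 array probes was followed over age in Emi2 knockout and wild-type mouse testis. Their signal was high in juvenile testis and lower in the adult, where both genotypes were at a like level. The 117 were chosen from 25689 regular probes on the authors' deposited log2 values. They had a wild-type mean at least 2 higher at P15 (postnatal day 15) than at P60, a wild-type P21 mean less than 0.7 above P15, and a P60 knockout minus wild-type difference between -0.5 and 0.5. Both fading conditions were met by 559 probes, and the other 442 of these lay above the P60 window in knockout, with 0 below it. The RNA came from whole testis of C57BL/6 mice and was measured on Illumina bead arrays, where beads carrying a probe light up with the amount of matching transcript. The 8 groups were Emi2 knockout and wild type at P15, P21, P30 and P60, with 2 arrays each. The growth protocol names p12 where titles, ages and design text name P15, which is used here. Whether the arrays within each group hold different animals is not stated. The p-values rest on the spread between arrays of a group, pooled per probe over the 8 groups. That spread may be technical. How the Emi2 allele was made is not given in the labels.

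In the juvenile testis the first wave of germ cells moves through meiosis together, and round and then elongating spermatids fill the tubules as the animal matures. Transcripts of Sertoli cells, of interstitial cells and of early germ cells therefore make up a shrinking part of whole-testis RNA, although each of those cells may hold as much as before. Emi2 (gene symbol Fbxo43) holds back the anaphase-promoting complex, which marks cell-cycle proteins for destruction so that a division can end. In RNA of a whole organ, fewer cells of a type and less RNA per cell cannot be told apart.

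Each array detected 13167 to 14630 of the regular probes (detection p under 0.05), and median raw signals lay between 132.5 and 213.7. The annotated gene symbols were not borne out by the levels, and probes are therefore given by identifier alone, with no gene or cell type. Ribosomal proteins are made in all cells, yet 31 of 64 probes with such symbols (48.4%) were detected in both P60 wild-type libraries, beside 47.8% of all regular probes. Of the spermatid names, the probes named Acrv1 and Tnp2 were high in wild type at P60, with mean log2 signals of 11.34 and 10.92. In P60 knockout the means were 4.78, below detection, for the probe named Acrv1 and 7.24 for that named Tnp2. The other 2 spermatid names did not show such a course. The probe named Prm1 was already at 10.65 in wild type at P15, and the one named Tnp1 was detected on no array. The probe named Fbxo43 had log2 signals of 9.26 and 9.35 in knockout and 10.45 and 10.36 in wild type at P60. At P15 it was at 10.86 and 11.15 in knockout and at 11.16 and 10.86 in wild type. Its means were 9.29 in knockout and 9.31 in wild type at P21, and 8.73 in knockout and 10.25 in wild type at P30. It checks no label while the names are not borne out. The labelled tissue could not be checked against its markers for the same reason.

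What chose the probes is given first, as a description. On the deposited log2 scale their wild-type P15 minus P60 difference had a median of 2.28 and ran from 2.004 to 3.95. The wild-type P21 minus P15 difference of the 117 ran from -3.20 to -0.21, and the condition on P21 removed 1 probe, ILMN_2754355, at 0.87. The P60 knockout minus wild-type difference ran from -0.22 to 0.50 with a median of 0.32. It was above 0 for 107 probes and below 0 for 10, so the set is the low end of a range that lies almost wholly on the knockout-high side. No gap in that range marks the edge of the window. ILMN_2718356 lay just inside at 0.496 and ILMN_2600135 just outside at 0.501. At the other threshold ILMN_2687053 was just inside with a fall of 2.004 and ILMN_2960108 just outside with 1.995. At the lower end of the window the nearest probe was ILMN_1215242, at -0.22.

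The values from here on are log2 signals after background correction, and the P60 window is wider on that scale. There the P60 knockout minus wild-type difference of the 117 probes had a median of 0.47 and ran from -0.58 to 1.17, with 47 probes over 0.5. Applied to the corrected values, the same conditions held for 304 probes, and 69 of the 117 were among them (59.0% of the 117 and 22.7% of the 304). Alike at P60 therefore holds on the deposited scale and only in part on the corrected one.

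The set was well measured while it was high. All 117 probes were detected on both arrays of both P15 groups, and all passed the filter of detection on at least 2 arrays. At P30, 113 were detected on both knockout arrays and 110 on both wild-type arrays. At P60 this number was 110 in knockout against 102 in wild type, and 9 were below detection on both wild-type arrays. On all 16 arrays, 100 were detected.

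**Figure D1:**
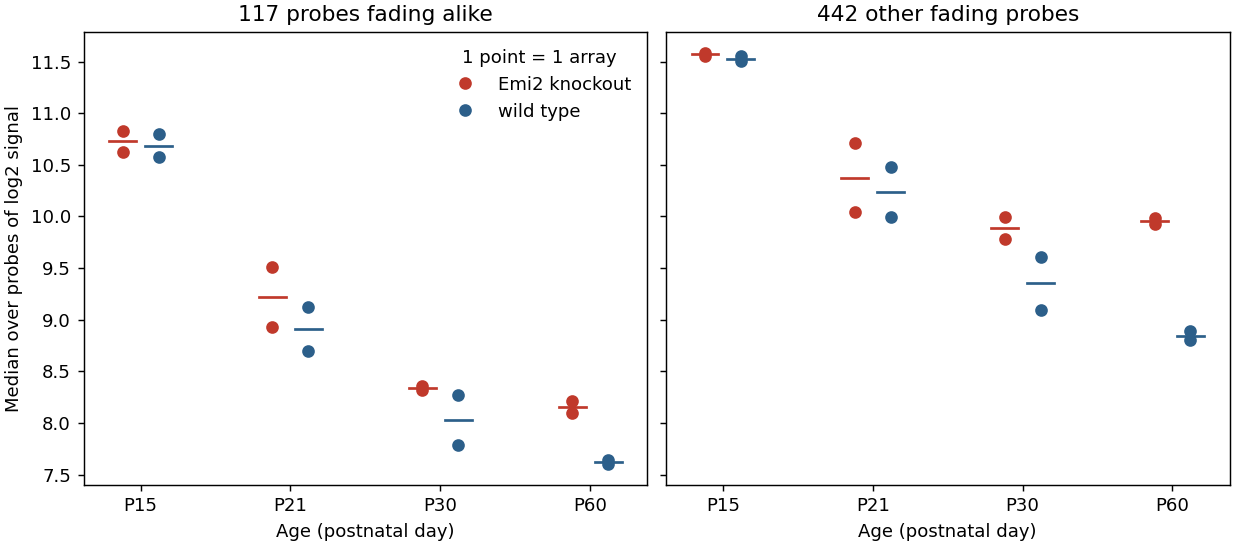
Median log2 signal over the 117 probes (left) and over the 442 other fading probes (right) on each array, by age, with Emi2 knockout in red and wild type in blue. Points are arrays and bars are means of 2 arrays. The 117 probes stood at 10.58 to 10.83 on the P15 arrays and at 8.10 and 8.21 in knockout against 7.60 and 7.64 in wild type at P60.

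The median over the 117 probes was lower at each later age in knockout and in wild type. At P15 it was 10.83 and 10.62 on the knockout arrays and 10.80 and 10.58 on the wild-type arrays. At P21 it was 8.93 and 9.51 in knockout and 8.69 and 9.13 in wild type. At both ages the genotypes overlapped, and at P21 replicate 1 was the lower array in each genotype. At P30 the knockout arrays stood close together at 8.32 and 8.35, against 8.27 and 7.79 in wild type. The P60 median was 8.21 and 8.10 in knockout and 7.60 and 7.64 in wild type, where the groups did not overlap. The P15, P21 and P60 wild-type arrays and the P60 knockout arrays chose the probes. Only the P30 arrays and the younger knockout arrays had no part in the choice. The knockout course is still tied to it. Its P15 level was close to that of wild type, and its P60 level was chosen.

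The first comparison on arrays that the choice did not use asked how far the probes had faded within the knockout by P30. A fall in knockout by P60 was largely built in. The choice set P60 knockout within 0.5 of P60 wild type, itself at least 2 below P15 wild type. At P15 the knockout minus wild-type difference of the 117 had a median of 0.03. What was open is how much of the fall was reached by P21 and P30, not whether the probes faded. Between P15 and P30 all 117 probes were lower in knockout past the threshold (limma adjusted p under 0.05), where 27.3% of the 17355 tested probes were lower, 19% higher and 46.3% either. The median change was -2.39, with fitted values from -5.49 to -1.30, and the median over all tested probes was -0.12. A fall of at least 4-fold past the threshold was fitted for 454 of the 17355 tested probes and for 95 of the 117. Leaving out any 1 of these 4 arrays, the median change over the 117 probes ran from -2.43 to -2.33.

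Steep and shallow courses stood side by side in the set. ILMN_3103652 was at 5.43 and 5.95 in knockout at P30, against 10.21 and 9.72 at P15. That is a change of -4.27 ± 0.38 (SE; limma adjusted p = 1.16e-06). ILMN_2875812 was at 5.76 and 5.38 against 9.61 and 9.33, a change of -3.90 ± 0.24 (SE; limma adjusted p = 3.21e-08). Both had only a small signal left at P30. ILMN_2619107 was at 6.38 and 5.45 at P30 against 9.94 and 9.53 at P15, and fell by 3.83 on the log2 scale (limma adjusted p = 3.89e-07). ILMN_3160326 was at 7.35 and 7.30 against 11.25 and 10.98, and fell by 3.79 (limma adjusted p = 2.3e-06). In these 4 probes every P30 array lay at least 3 log2 units below every P15 array. On the deposited scale, without background correction, the changes were smaller, with -2.65 for ILMN_3103652, -2.26 for ILMN_2875812 and -2.37 for ILMN_2619107. The probes with the smallest change kept a strong signal. ILMN_3114585 was at 11.05 and 11.43 in knockout at P30 against 12.48 and 12.59 at P15 (-1.30 ± 0.23, SE; limma adjusted p = 0.000488). ILMN_1238886 changed by -1.42 ± 0.29 (SE; limma adjusted p = 0.00131) and ILMN_2687053 by -1.48 ± 0.24 (SE; limma adjusted p = 0.000259).

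For probes that reached background only a bound on the fall is known. ILMN_2825496 had the mean 9.78 ± 0.22 in knockout at P15 (SD, n = 2), was not well above background at P30, and was at least 23.2-fold lower there (limma adjusted p = 4.1e-08). ILMN_2593515 was at least 18.7-fold lower (limma adjusted p = 1.24e-07), again to a level not well above background. ILMN_3149058 was at 5.76 and 5.02 in knockout at P30, detected on 1 of 2 arrays, against 10.83 and 10.93 at P15 (limma adjusted p = 6.42e-09). Its fitted change of -5.49 reaches into the background and has no rank among these probes.

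In the fit of all arrays, most of the P15 to P30 fall in knockout had taken place by P21. Between P15 and P21, 110 of 117 probes were lower past the threshold and 0 higher, where 18% of all tested probes were lower and 13.3% higher (31.3% either). The median change was -1.53. Of the 442 other fading probes, 361 (81.7%) were lower and 0 higher over this interval, with a median change of -1.17. A fall of at least 2-fold past the threshold was fitted for 1838 of the 17355 tested probes and for 103 of the 110. Without P21 knockout replicate 1, the lower of both P21 knockout arrays, 72 passed. The 7 that did not pass were ILMN_1218528, ILMN_2596970, ILMN_2676716, ILMN_2738726, ILMN_2793806, ILMN_2954781 and ILMN_3080183. They are named after their values were seen, and all 7 had negative fitted changes. ILMN_2676716 had the smallest change of the set (-0.38; limma adjusted p = 0.416). Per probe, the share of the P15 to P30 fall that was reached by P21 had a median of 63.9% in knockout and 64.6% in wild type. The quartiles were 57.9% and 72.3% in knockout and 59.6% and 70.3% in wild type. The knockout share depended on single P21 arrays, whose median difference over the 117 was -0.58 (replicate 1 minus replicate 2). Without P21 knockout replicate 1 the median P15 to P21 change was -1.22, and without replicate 2 it was -1.78.

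After P21 the knockout values were lower again, but few single probes passed. Between P21 and P30 the fitted change was negative for 116 of 117 probes, with a median of -0.82, and -0.0274 over all tested probes. Of the 117, 11 were lower past the threshold and 0 higher, where 0.346% of all tested probes were lower and 0.674% higher (1.02% either). ILMN_2848353 was at 5.53 and 5.09 in knockout at P30, detected on 1 of 2 arrays, against 8.12 and 7.53 at P21 (-2.51 ± 0.38, SE; limma adjusted p = 0.00695). ILMN_1253942 was at 6.29 and 7.05 against 7.96 and 9.55 (-2.08 ± 0.46, SE; limma adjusted p = 0.0491). ILMN_3103652 was at 5.43 and 5.95 against 7.28 and 7.89 (-1.89 ± 0.38, SE; limma adjusted p = 0.0339). In these 3 probes the P30 and P21 knockout arrays did not overlap. Leaving out 1 of the 4 arrays at a time, the adjusted p (limma) ran from 0.0245 to 0.0502 for ILMN_2848353, from 0.00853 to 0.363 for ILMN_1253942 and from 0.0295 to 0.275 for ILMN_3103652. With the deposited values the changes were -1.10 for ILMN_2848353, which passed, and -1.31 for ILMN_1253942 and -0.84 for ILMN_3103652, which did not (limma adjusted p = 0.0551 and 0.0548). ILMN_2631379, whose change was 0.0915, was the 1 probe with a positive value.

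The count of 11 rested on single arrays. It was 42 without P21 knockout replicate 1, 1 without P21 knockout replicate 2, 3 without P30 knockout replicate 1 and 0 without P30 knockout replicate 2. With only the 4 knockout arrays of P21 and P30 fitted it was 0. In the fit of all arrays 87 of 117 had an unadjusted p under 0.05 (limma), beside 2965 of the 17355 tested probes. The median change over the 117 probes was -1.15 without P21 knockout replicate 1 and -0.52 without P21 knockout replicate 2.

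**Figure D2:**
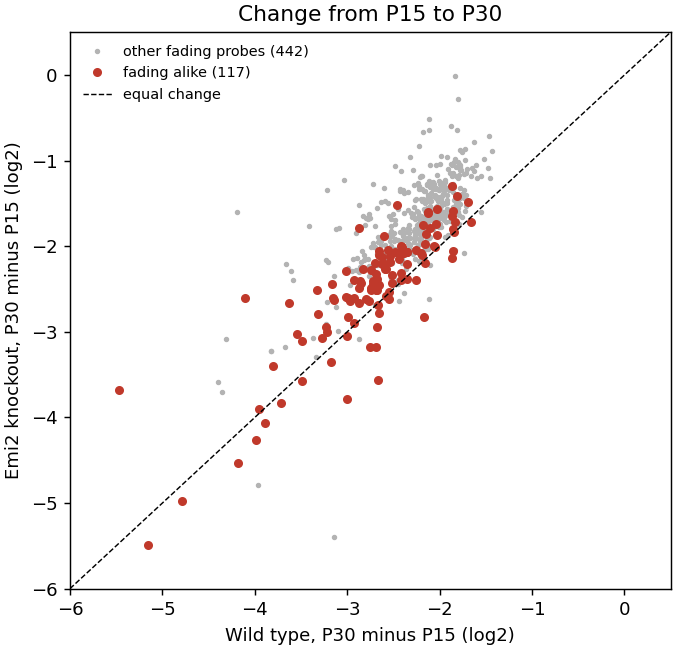
Change from P15 to P30 in Emi2 knockout (vertical axis) against wild type (horizontal axis), in log2 units. Red points are the 117 probes and grey points the 442 other fading probes. The red points ran along the line of equal change, mostly a little above it, and the grey points lay further above.

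Across the 117 probes the P15 to P30 change in knockout and that in wild type had a correlation of 0.851. This correlation is across probes that share the arrays of each group and the wild-type P15 arrays that chose them. The median P15 to P30 change was -2.39 in knockout and -2.66 in wild type. Across the 442 other fading probes the correlation was 0.710, with median changes of -1.65 in knockout and -2.17 in wild type.

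At P30, an age that the choice of probes did not use, few of the 117 differed between knockout and wild type. In knockout 4 were higher and 0 lower past the threshold, where 23.5% of all tested probes differed, 13.1% higher and 10.4% lower. Of the 117, 8 had an unadjusted p under 0.05 (limma), beside 6447 of the 17355 tested probes. The median knockout minus wild-type difference was 0.26, equal to the median over all tested probes (0.26), with quartiles of 0.11 and 0.46. For 94 of the 117 (80.3%) the difference was within 0.5 in size, and that held for 53.6% of all tested probes. The 95% interval of a single probe had a median half-width of 0.62. For 72 of the 117 it lay wholly between -1 and 1, for 39 it reached above 1, and for 8 below -1. Over the 17355 tested probes these counts were 7363, 6922 and 3208. A 2-fold difference at P30 was thus outside the interval for 61.5% of the 117 and not for the others. That share was 42.4% of all tested probes and 23.5% of the 442 other fading probes.

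**Figure D3:**
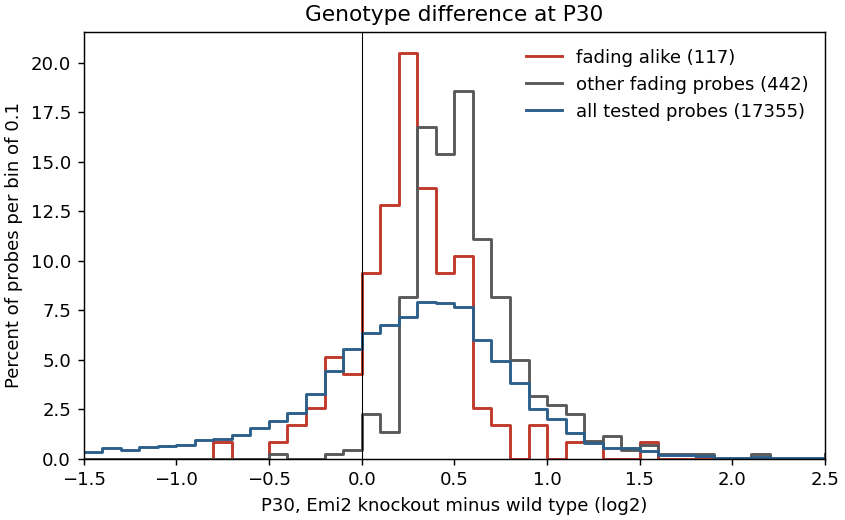
Distribution of the P30 Emi2 knockout minus wild-type difference (horizontal axis, log2), as the percent of probes per bin of 0.1. The 117 probes (red) had the median 0.26, as did all 17355 tested probes (blue), and the 442 other fading probes (dark grey) had the median 0.53. All tested probes spread wider, with some outside the drawn range.

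The small P30 difference of the set rested on 1 wild-type array. Taken array by array, the median over the 117 probes was -0.0074 for knockout replicate 1 minus wild-type replicate 1 and 0.0753 for knockout replicate 2 minus wild-type replicate 1. Against wild-type replicate 2 it was 0.48 and 0.54. The wild-type arrays differed from each other by a median of 0.49 over these probes. The P30 groups did not overlap for 37 of the 117 probes, all higher in knockout (31.6%), where 44.2% of all tested probes were higher and 19.4% lower without overlap. In the fits, the median was 0.0182 without wild-type replicate 2 and 0.51 without wild-type replicate 1, with 2 and 7 probes higher. The number lower was 0 without either.

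The 4 probes that did differ at P30 were all higher in knockout. ILMN_1253942 was at 6.29 and 7.05 in knockout and at 4.55 and 5.75 in wild type, where it was detected on 1 of 2 arrays. Its wild-type mean of 5.15 lay below the lowest detected signals on those arrays, 5.23 and 5.27, so the fitted difference of 1.52 (limma adjusted p = 0.0276) has no firm size. ILMN_2631379 was at 6.09 and 6.16 in knockout, and in wild type it was not well above background. It was at least 1.83-fold higher in knockout (limma adjusted p = 0.00762). Both had little or no wild-type signal at P30. ILMN_2596970 was at 8.86 and 8.72 in knockout and at 7.72 and 7.50 in wild type (difference 1.18 ± 0.36, SE; limma adjusted p = 0.0313). ILMN_1216183 was at 6.70 and 6.97 in knockout and at 6.39 and 5.78 in wild type (difference 0.76 ± 0.25, SE; limma adjusted p = 0.042). Knockout and wild-type arrays of the 4 probes did not overlap at P30. At P60, which chose them, ILMN_2596970 was at 8.34 and 7.09 in knockout and at 7.20 and 7.53 in wild type, so there the groups overlapped. ILMN_2631379 had its full fall in knockout by P21, at 6.13 and 5.93, and stood at 6.54 and 5.62 at P60. Leaving out 1 P30 array at a time, the call of ILMN_2631379 was kept each time and those of the other 3 were not. The adjusted p (limma) ran from 0.0151 to 0.201 for ILMN_1253942, from 0.0310 to 0.0493 for ILMN_2631379, from 0.0615 to 0.170 for ILMN_2596970 and from 0.0143 to 0.342 for ILMN_1216183. With the deposited values ILMN_2596970 still passed, at a difference of 0.82 (limma adjusted p = 0.0402). There the differences were 0.54 for ILMN_1253942, 0.38 for ILMN_2631379 and 0.30 for ILMN_1216183, and these did not pass (limma adjusted p = 0.214, 0.0729 and 0.0719).

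**Figure D4:**
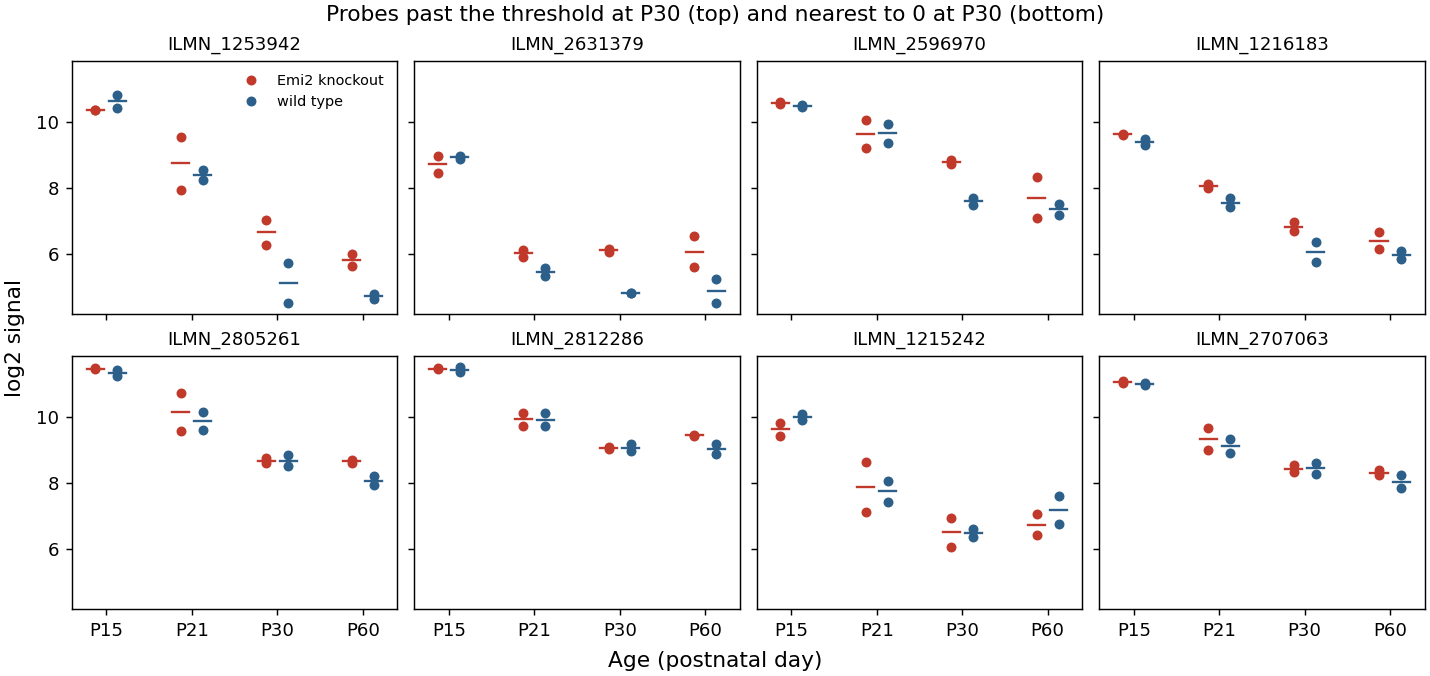
Log2 signal (vertical axis) by age on each array for the 4 probes higher in knockout at P30 (top row) and the 4 detected probes with the smallest P30 difference (bottom row), Emi2 knockout in red and wild type in blue. Points are arrays and bars are means of 2 arrays. All 8 were high at P15 and lower from P30 on. Both knockout points at P30 lay above both wild-type points in the top row only.

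At the other end, 4 probes detected on every P30 array had differences close to 0. ILMN_2805261 was at 8.61 and 8.75 in knockout and at 8.85 and 8.51 in wild type at P30, with a 95% interval of the difference from -0.68 to 0.68. ILMN_2812286 was at 9.03 and 9.09 in knockout and at 9.17 and 8.96 in wild type, with an interval from -0.47 to 0.47. ILMN_2707063 was at 8.32 and 8.55 in knockout and at 8.61 and 8.29 in wild type, with an interval from -0.57 to 0.54. In all 3 both knockout values lay between the wild-type values. ILMN_1215242 was at 6.95 and 6.08 in knockout and at 6.62 and 6.39 in wild type, and its interval was wide, from -0.97 to 0.98. The most negative fitted difference of the set was that of ILMN_2954781, with -0.78 and an adjusted p of 0.5 (limma).

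The 6 probes with the largest wild-type fall from P15 to P60 were, in that order, ILMN_2685919, ILMN_3149058, ILMN_1253942, ILMN_1236161, ILMN_1217378 and ILMN_2834563. ILMN_2685919 had the deposited fall of 3.95. Its log2 signal in knockout was 12.96 and 12.67 at P15, 10.09 and 10.91 at P21, 9.41 and 9.09 at P30 and 8.59 and 8.80 at P60. In wild type it was 12.68 and 12.61 at P15, 10.09 and 10.53 at P21, 9.41 and 8.91 at P30 and 8.22 and 8.17 at P60. The genotypes overlapped at P21 and P30, and the P30 difference was 0.0886 ± 0.28 (SE; limma adjusted p = 0.85). ILMN_3149058 was at 6.99 and 7.43 in knockout and already at 5.91 and 6.16 in wild type at P21, and its P30 arrays overlapped at 5.76 and 5.02 in knockout and 5.75 and 5.29 in wild type. ILMN_1236161 went on falling late. It was at 8.55 and 7.13 in knockout and 8.27 and 7.69 in wild type at P30, and at 5.47 and 6.01 in knockout and 5.53 and 4.70 in wild type at P60. ILMN_1217378 was at 9.99 and 9.89 in knockout and at 9.87 and 9.35 in wild type at P30. ILMN_2834563, the brightest of the 6, was at 11.19 and 11.31 in knockout and at 11.22 and 10.69 in wild type. Apart from ILMN_1253942, none of the 6 passed at P30.

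**Figure D5:**
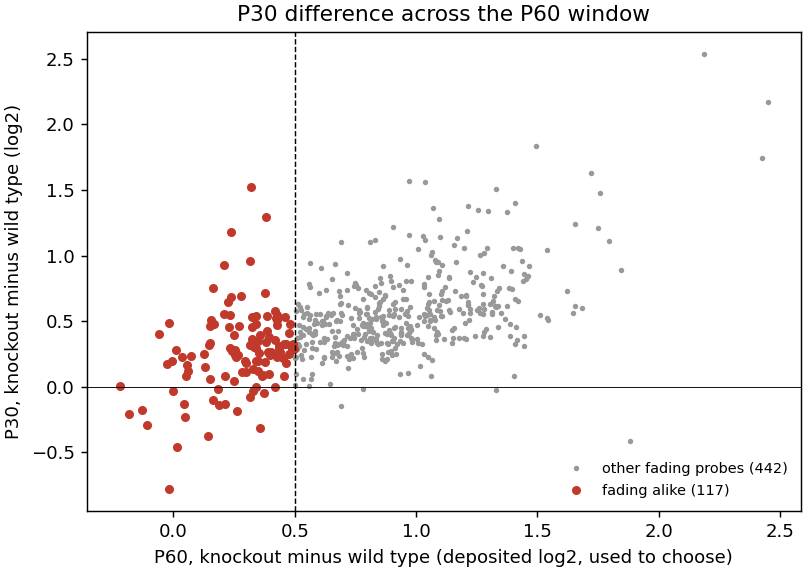
P30 Emi2 knockout minus wild-type difference (vertical axis, log2, background-corrected) against the P60 difference on the deposited scale (horizontal axis), for the 117 probes (red) and the 442 other fading probes (grey). The dashed line is the upper edge of the window at 0.5. Values ran on across the line with no break, and the P30 median was 0.29 for the 73 probes just left of it and 0.40 for the 121 just right of it.

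The 442 probes that faded in wild type but stood above the window in P60 knockout are the nearest comparison. At P30, 67 of the 442 (15.2%) were higher in knockout and 0 lower, with a median difference of 0.53, where 13.1% of all tested probes were higher and 10.4% lower. The share higher is thus near that of all tested probes. The median P21 to P30 change in knockout was -0.49 for the 442 and -0.82 for the 117, and between P15 and P30 431 of the 442 were lower past the threshold, beside 27.3% of all tested probes. The P30 difference was ordered as the P60 difference was, on arrays that had no part in the P60 values. It had a median of -0.0132 for the 10 probes below 0 at P60, 0.26 for the 34 from 0 to 0.25 and 0.29 for the 73 from 0.25 to 0.5. Beyond the window it was 0.40 for 121 probes up to 0.75, 0.48 for 144 up to 1, 0.63 for 159 up to 1.5 and 0.96 for the 18 above. The first and last of these bins hold under 20 probes. No test over probes was made of these medians, since probes on the same arrays are not replicates.

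The 117 were also dimmer at the start, with a median P15 knockout level of 10.76 beside 11.58 for the 442. The P30 medians are given here within steps of that level, as a description. For levels under 10 the median P30 difference was 0.26 for 31 of the 117 and 0.58 for 33 of the 442. From 10 to 11 it was 0.33 for 35 probes and 0.56 for 115, and from 11 to 12 it was 0.23 for 34 and 0.53 for 131. Over 12 it was 0.30 for 17 and 0.49 for 163. These steps are of the P15 level alone. In P60 wild type the median level was 7.57 for the 117 and 8.84 for the 442. The part of signal level in the P60 choice was not tested.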

How the data were processed

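The deposited table of signal intensity per probe is neither background-corrected nor normalized, as its values show. The detection value deposited with it is a fraction, which rose with signal in regular probes and was read as 1 minus the detection p-value. A deposited table of log2 values was recomputed as quantile-normalized log2 intensities over all 26511 rows to within 0.00276. Its scale is therefore known and its genes were not centred, and each column's median was 7.39. Limma is the tool named in the submitters' processing notes, with its version not given in the sources used here. Its values chose the probes, after 822 control rows were dropped.

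Intensities of the 25689 regular probes were background-corrected with normexp from the detection p-values (offset 16), put on log2 and quantile normalized. All 17355 probes detected (p under 0.05) on at least 2 arrays were tested with limma 3.58.1 in R 4.3.3 over 8 group means (8 residual and 5.81 prior degrees of freedom), with Benjamini-Hochberg adjustment. No probe was dropped for sharing a gene name. The spread of a probe was estimated from all arrays, those that chose the probes included. On simulated arrays with 100 probes lowered by 1 and 100 by 2 among 17355, the P30 genotype comparison found 25 and 90. In these simulated data the knockout P15 to P21 comparison found 29 and 87, P15 to P30 26 and 82, and P21 to P30 25 and 86. Their noise was independent between probes, with no shift shared over an array, and few probes were changed. In the data 23.5% of tested probes were called at P30 and 46.3% in knockout from P15 to P30. The simulated counts therefore do not give the recovery in the real comparisons. The number of arrays limits the precision.

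The probes and the comparisons were chosen with earlier results of these data known. Named probes were, by rule, the 6 largest wild-type falls, up to 5 P30 calls each way, the 4 smallest P30 differences among detected probes, the 4 largest detected and 3 smallest knockout P15 to P30 changes, up to 3 P21 to P30 calls each way, and probes at the thresholds. Outside these lists, ILMN_2825496, ILMN_2593515 and ILMN_2954781 were named after their values were seen. So were the probes that did not pass from P15 to P21, apart from those the lists hold. A bound is the brighter group's mean over the lowest signal among detected probes, or the probe's own if higher. Alternatives were the deposited values, 75th percentile scaling, offset 50, other filters, other windows, fewer arrays and a replicate block. No probe sequence was used.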

Additional observations from a re-analysis of the deposited data

How the results depend on the processing

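Leaving out each array of a comparison in turn, the probes higher at P30 ranged from 2 to 7 (4 with all arrays), their median difference from 0.0182 to 0.51, and that median minus the median of all tested probes from -0.18 to 0.21. Probes lower in knockout ranged from 72 to 112 for P15 to P21 (110) and from 0 to 42 for P21 to P30 (11). The P21 to P30 median ranged from -1.15 to -0.52, and minus that of all tested probes from -1.12 to -0.50. The P15 to P30 count stayed between 114 and 116, and its median between -2.43 and -2.33.

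With the deposited log2 values 1 of the 117 was higher at P30, beside 2511 of the 17355 tested probes. The median difference was 0.19 over the 117 and 0.12 over all tested probes. The knockout P15 to P30 median was -1.90 with the deposited values, -2.22 with 75th percentile scaling and -2.20 with offset 50. Minus the median of all tested probes these were -1.85, -2.13 and -2.12. With no filter on dim probes 5 were lower from P21 to P30, and with only the arrays compared 0. With only probes detected on all 4 P30 arrays, 2 of 109 were higher at P30. Other memberships change the number of probes but not the fit, in which 2270 of the 17355 tested probes were higher at P30. With the window of 0.25 (44 probes) 2 were higher at P30, and 41, 44 and 6 lower for P15 to P21, P15 to P30 and P21 to P30. The window of 1 (382) gave 26 higher, and 338 and 381 lower over the first 2 intervals. The conditions on corrected values (304) gave 262, 301 and 18 lower. The P15 to P30 medians were -2.63, -1.93 and -2.07, and -2.51, -1.81 and -1.96 minus that of all tested probes. In each of these settings 0 probes were lower at P30.

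The replicate block (same numbers paired) gave 3 higher at P30 and 111, 117 and 10 lower over the knockout intervals. Same-numbered arrays deviated together by a correlation of 0.122 at P30, and -0.217, -0.0407 and 0.213 over the intervals. With 2 pairs a comparison these do not establish a pairing, nor its absence. The block moved no count by over 1.5 times, and ILMN_1216183 no longer passed.

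Among the P30 differences nearest 0, signs turned. ILMN_2805261 was -0.000637 with the deposited values, -0.00728 with 75th percentile scaling and -0.000188 with offset 50, and ILMN_1215242 was -0.0885 with that scaling. Without 1 array they ran from -0.17 to 0.17 and from -0.43 to 0.45, ILMN_2812286 from -0.10 to 0.11 and ILMN_2707063 from -0.18 to 0.14. Where no construction shows it, the cause was not tested. Signal over background limits what is known of the 9 probes below detection in P60 wild type.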
